A study of Mus musculus with 17 samples.

Results

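The integrated stress response and its ATF4 target genes were examined in mouse β cells as a group of 35 genes, a list made with earlier results of these data known, whose rule names the genes and uses no measured value. They comprised 15 genes of the ATF4 arm and its response, 3 genes for kinases of the translation factor eIF2α, 9 genes for enzymes of amino acid and one-carbon metabolism, and 8 genes for cytosolic aminoacyl-tRNA synthetases. All 35 were among the 55357 genes measured, 28 under the same symbol and 7 under an older one (Iars, Wars, Gars, Nars, Yars, Tars and Sars), and all 35 were among the 22784 genes that passed the expression filter.

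The β cells came from islets of male mice in which Cre, driven by the rat insulin promoter (RIP-Cre), turned on a tdTomato reporter, so that cells which had recombined could be sorted by tdTomato and by exclusion of the dead-cell dye DAPI. Control cells carried RIP-Cre and the reporter. *Pcbp2*βKO cells carried in addition floxed alleles of *Pcbp2*, which encodes a poly(C)-binding protein that acts on mRNA. The islets were kept for 72 h in 2.8 mM (low) or 16.7 mM (high) glucose, and RNA of the sorted cells was sequenced. The 17 samples were 3 of control cells and 5 of *Pcbp2*βKO cells at 2.8 mM, and 4 of control cells and 5 of *Pcbp2*βKO cells at 16.7 mM. Replicates are named by the number in their labels. Nothing in the labels says that replicates came from separate animals, so the p values measure the spread between these samples, which may be technical. Each cell in both genotypes had expressed the same Cre driver, and no group without Cre was included.

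The integrated stress response converges on phosphorylation of eIF2α by kinases that sense unfolded protein, uncharged tRNA, double-stranded RNA or heme. General translation then slows, while mRNA with upstream open reading frames, such as that of the transcription factor ATF4, is translated more. ATF4, together with C/EBP family partners, turns on genes for amino acid uptake and synthesis, for tRNA charging and, under prolonged stress, for the transcription factor CHOP. β cells translate very large amounts of proinsulin, and the eIF2α kinase PERK is known to be needed for their survival.

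Libraries held from 47385513 to 82419400 estimated counts. Levels are given in CPM, which relate counts to library sizes multiplied by edgeR's TMM factors so that the middle of the genes is alike in all samples, and means are given ± SD. *Pcbp2* itself lay between 50.7 and 73.4 CPM in control cells at 2.8 mM and between 15.5 and 19.2 CPM in *Pcbp2*βKO cells at 2.8 mM, and between 35.01 and 45.4 CPM in control cells at 16.7 mM and between 5.81 and 10.03 CPM in *Pcbp2*βKO cells at 16.7 mM. Its mRNA was thus lower but not absent in the cells labelled as knockout. All 10 β cell markers were detected, and their summed level was from 67330 to 123200 CPM at 2.8 mM and from 272000 to 526100 CPM at 16.7 mM. Most of each sum was *Ins1*, *Ins2* and *Iapp*, so the sums mainly give hormone mRNA. The markers *Ucn3* and *Slc30a8* overlapped between the glucose concentrations in both genotypes. The 5 macrophage markers summed to 18.8 to 157 CPM at 2.8 mM and to 1.71 to 15.5 CPM at 16.7 mM. The 5 α cell markers, of which 1 was under 0.1 CPM in every sample of some groups, summed to 638 to 2566 CPM in control cells at 2.8 mM, 262 to 1463 CPM in control cells at 16.7 mM, 1473 to 9196 CPM in *Pcbp2*βKO cells at 2.8 mM and 174 to 1322 CPM in *Pcbp2*βKO cells at 16.7 mM. Of 11 immediate-early and dissociation genes, 7 rose and 1 fell with glucose in control cells and 7 rose and 2 fell in *Pcbp2*βKO cells, with *Fos* at 4.82 ± 0.61 and 4.12 ± 0.46 and *Hspa1b* at -2.53 ± 0.68 and -4.32 ± 0.64 on the log2 scale. These were 72.7% and 81.8% of the list, against 13.8% and 23.8% of all genes called in the tests below. *Ppy*, the marker of PP cells, was at 797 to 835 CPM in control cells at 2.8 mM, 224 to 631 CPM in control cells at 16.7 mM, 992 to 5112 CPM in *Pcbp2*βKO cells at 2.8 mM and 290 to 1142 CPM in *Pcbp2*βKO cells at 16.7 mM, so that the genotypes did not overlap at 2.8 mM. The 2 δ cell markers summed to 78.2 to 276 CPM in control cells at 2.8 mM, 102 to 231 CPM in control cells at 16.7 mM, 112 to 945 CPM in *Pcbp2*βKO cells at 2.8 mM and 73.1 to 315 CPM in *Pcbp2*βKO cells at 16.7 mM. The 4 ductal markers summed to 451 to 565 CPM at 2.8 mM and to 384 to 1183 CPM at 16.7 mM. Of these, *Krt7* was at 339 to 557 CPM and *Spp1* reached 799 CPM in control cells at 16.7 mM. The part of these other cells and genes in the results below was not tested.

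At 16.7 mM, 3 samples lay apart from the others of their group on the first principal component of all genes, which held 30% of the variance. Control replicate 4, *Pcbp2*βKO replicate 4 and *Pcbp2*βKO replicate 5 scored 9.9, 21.4 and 33.2, while the other 6 samples at 16.7 mM scored 90.9 to 99.1 and those at 2.8 mM scored below 0. The α cell markers summed to 1463 CPM in control replicate 4, against 262 to 358 CPM in the other 3 control samples at 16.7 mM. In *Pcbp2*βKO replicates 4 and 5 they summed to 966 and 1322 CPM, against 174 to 449.5 CPM in the other *Pcbp2*βKO samples at 16.7 mM. The β cell markers summed to 272000, 359000 and 362200 CPM in these 3 samples, below every other sample of their group. The results below are given with all samples, and where a call depends on these samples the value without them is given beside it. The first component separates the glucose concentrations, and these 3 samples are those at 16.7 mM nearest to 2.8 mM on it. Leaving them out therefore tends to widen glucose differences, and the values without them are no independent check. Over all genes, calls for glucose in control cells went from 3153 of 22784 to 4898 of 22352.

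On a scale that corrects for transcript length (TPM, deposited by the authors), the members spanned a wide range in control cells at 2.8 mM. *Nupr1* stood at 1076 ± 401 TPM and *Ddit3* at 897 ± 149 TPM (SD, n = 3), a difference smaller than the spread of *Nupr1*. They were followed by *Sars1* at 363 ± 41.5, *Asns* at 331 ± 41.4 and *Nars1* at 225 ± 22.2 TPM, of which *Sars1* and *Asns* lay within their spread of each other. *Atf4* stood ninth, at 139 ± 13.2 TPM. At the low end were *Ddit4* at 0.742 ± 0.0829, *Stc2* at 0.648 ± 0.358 and *Cebpb* at 0.330 ± 0.0133 TPM, so that their fold changes rest on few counts.

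More members were lower than higher at high glucose, in both genotypes. In control cells, 6 of 35 members had, in edgeR's quasi-likelihood test, a fold change over 1.5 at an adjusted p under 0.05, with 1 higher at 16.7 mM and 5 lower, while 13.8% of all genes tested were called (7.15% higher and 6.69% lower). In *Pcbp2*βKO cells, 11 of 35 were called, with 1 higher and 10 lower, against 23.8% of all genes (13.4% higher and 10.4% lower). The 6 called members of control cells were thus 17.1% of the list, against 13.8% of all genes, and the 11 of *Pcbp2*βKO cells were 31.4%. The count in control cells varied with the fit, at 14 of 35 members (4775 of 22784 genes) with the replicate number as a block, 13 of 35 (4898 of 22352 genes) without the 3 samples apart and 3 to 11 (1382 to 4480 of all genes) when 1 sample was left out. The median log2 fold change of the members was -0.33 in control cells and -0.27 in *Pcbp2*βKO cells, and that of all genes was 0.04 and 0.01. The ranges of the samples at 2.8 mM and at 16.7 mM did not overlap for 9 members in control cells and 11 in *Pcbp2*βKO cells, where the shares for all genes were 24.1% and 21.6%. With total counts in place of TMM, 0 members were called higher and 15 lower in control cells and 1 higher and 20 lower in *Pcbp2*βKO cells, while 4837 and 7851 of 22784 genes were called and higher genes made up 16.2% and 18.9% of all calls instead of 51.7% and 56.3%. *Ddit3*, *Mthfd2*, *Sars1* and *Yars1* were called in both genotypes, all 4 lower at high glucose.

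**Figure D1:**
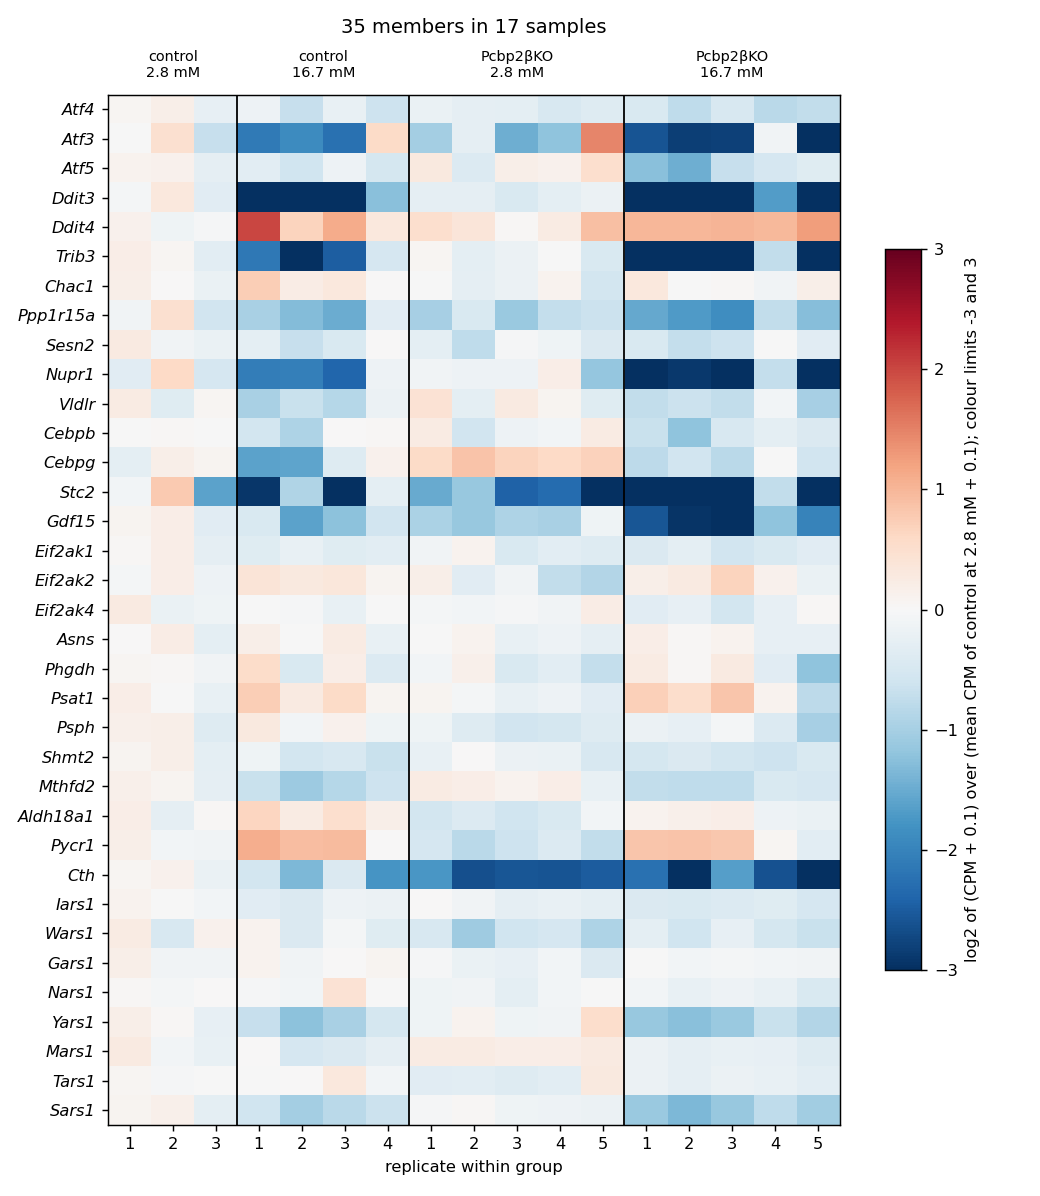
Level of each of the 35 members (lines) in each of the 17 samples (columns, grouped by genotype and glucose and numbered by replicate), as the log2 ratio of CPM + 0.1 to the mean of control cells at 2.8 mM + 0.1, with colour limits at -3 and 3. *Ddit3*, *Trib3* and *Nupr1* are lower in most samples at 16.7 mM, with replicate 4 of each genotype nearer to the samples at 2.8 mM, and *Cth* is lower in the *Pcbp2*βKO samples.

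**Figure D2:**
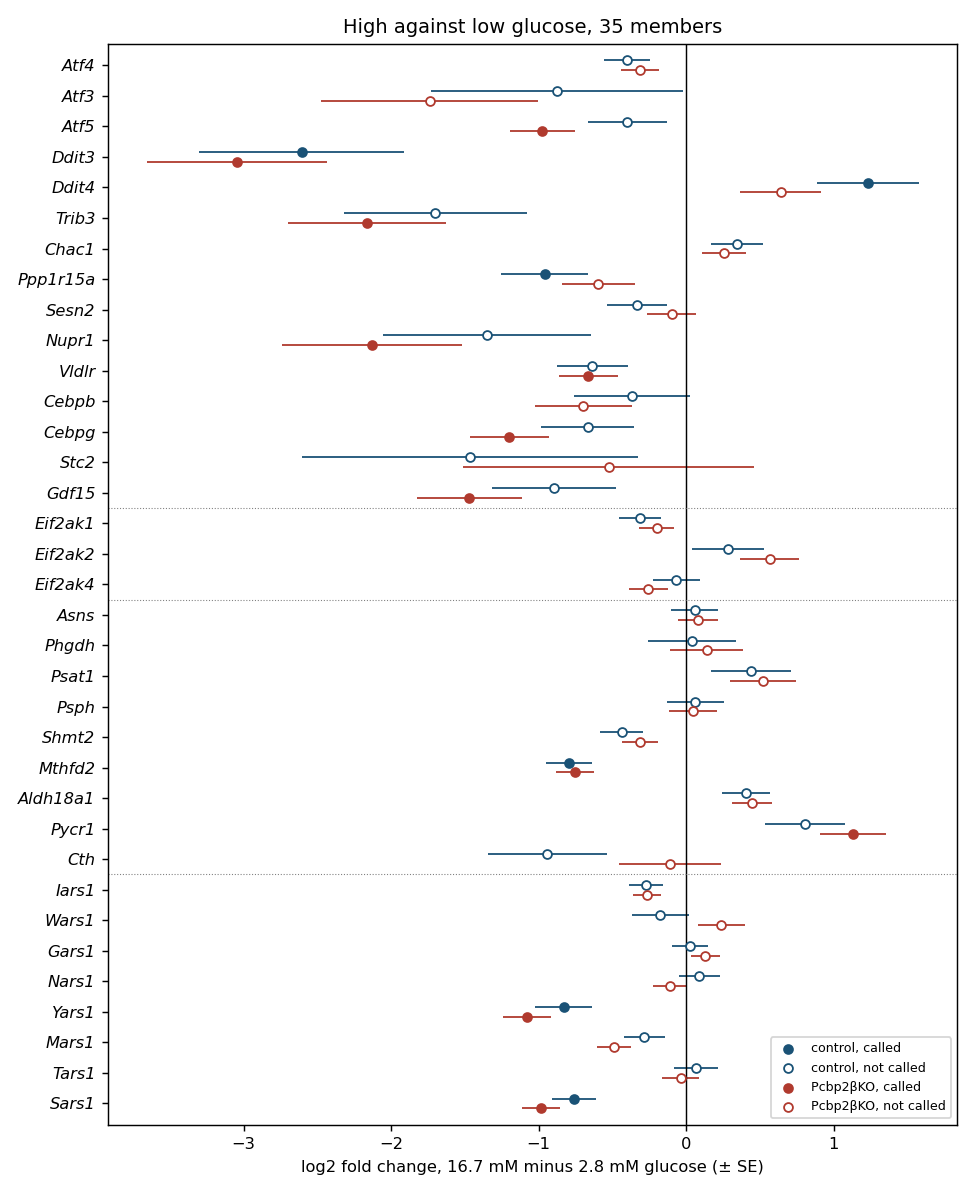
Log2 fold change of each member between 16.7 mM and 2.8 mM glucose in control and *Pcbp2*βKO cells, with bars of 1 SE from edgeR; filled points were called and open points were not. Most points lie left of 0, with *Ddit3* farthest left among the called genes in both genotypes, and *Ddit4* and *Pycr1* lie to the right.

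The ATF4 arm held most of the calls in *Pcbp2*βKO cells. Of its 15 genes, 1 rose and 2 fell with glucose in control cells, median log2 fold change -0.67, and none rose and 7 fell in *Pcbp2*βKO cells, median -0.70. The shares called were 20% and 46.7%, against 13.8% and 23.8% of all genes. *Atf4*, whose protein is set mainly by translation, was not called in either genotype. Its mRNA was at 239.5, 259.5 and 193 CPM in control cells at 2.8 mM and at 209, 144, 197 and 149 CPM in control cells at 16.7 mM. It was at 201, 192, 189.9, 164 and 176 CPM in *Pcbp2*βKO cells at 2.8 mM and at 168, 137, 166, 132 and 139 CPM in *Pcbp2*βKO cells at 16.7 mM. The ranges overlapped in both genotypes, and the log2 fold changes were -0.40 ± 0.15 (adjusted p = 0.0835) and -0.32 ± 0.13 (adjusted p = 0.0703). In these sorted populations, fewer cells that express a gene and less RNA of it per cell cannot be told apart.

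*Ddit3*, which encodes CHOP, a transcription factor of the late and pro-apoptotic phase of the response, fell in both genotypes. It was at 621, 799 and 505 CPM in control cells at 2.8 mM and at 64.7, 39.3, 48.97 and 269 CPM in control cells at 16.7 mM. It was at 534, 535, 471, 527 and 569 CPM in *Pcbp2*βKO cells at 2.8 mM and at 30.9, 22.7, 32.2, 202 and 31.4 CPM in *Pcbp2*βKO cells at 16.7 mM. The ranges did not overlap in either genotype, and replicate 4 stood several times above the other samples at 16.7 mM in both. The log2 fold changes were -2.61 ± 0.70 (adjusted p = 0.0166) in control cells and -3.05 ± 0.61 (adjusted p = 0.00103) in *Pcbp2*βKO cells. Without the 3 samples that lay apart they were -3.67 and -4.24. In control cells the call was lost when control replicate 2 at 2.8 mM or replicate 1, 2 or 3 at 16.7 mM was left out. *Ddit3* (chr10:127124268-127132163, plus strand, GRCm39) overlaps *Mars1* (chr10:127128344-127147776, minus strand) over 3576 exonic bases of the current gene models, and since the strand of the reads is not stated, reads of these genes cannot be told apart there. The overlap is smaller for the *Mars1* transcripts present in both the counts and the current models, which share 0 to 74 bases with *Ddit3*. Mars1-201 and Mars1-206 each share 74 bases (2.5% of their length). Over all current models of *Mars1*, including longer ones not among those transcripts, Ddit3-201 shares 778 of its 979 bases. Other members also share exonic bases with more abundant genes on the other strand. Among them are *Cebpb* (20.7% of its exonic bases), *Atf5* (8.4%), *Psph* (6.3%) and *Eif2ak4* (3.4%), and the part of reads from those genes was not tested.

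Replicate 4 was the highest sample at 16.7 mM for *Trib3* and *Nupr1* as well. *Trib3* encodes a pseudokinase that binds ATF4 and CHOP and restrains AKT. Its level was 428, 386 and 299 CPM in control cells at 2.8 mM and 83.4, 44.2, 66.9 and 262 CPM in control cells at 16.7 mM. The *Pcbp2*βKO cells were at 385, 303, 331, 369 and 270.1 CPM at 2.8 mM and 40.3, 30.2, 36.8, 224 and 38.6 CPM at 16.7 mM. The ranges did not overlap in either genotype, and replicate 4 at 16.7 mM lay nearest to the samples at 2.8 mM. *Trib3* fell in *Pcbp2*βKO cells, by 2.16 on the log2 scale (SE 0.54, adjusted p = 0.00498). In control cells its log2 fold change of -1.70 ± 0.62 did not pass (adjusted p = 0.0697), and it was -2.49 (adjusted p = 0.000245) with the replicate number as a block and -2.54 (adjusted p = 2.64e-06) without the 3 samples apart.

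*Nupr1* encodes a small chromatin-associated protein induced by many stresses. It was at 545, 1028 and 480.4 CPM in control cells at 2.8 mM and at 161, 164, 132 and 615 CPM in control cells at 16.7 mM. Among *Pcbp2*βKO samples it was at 637, 618, 612, 781 and 305 CPM at 2.8 mM and at 83.3, 92.4, 59.4, 418 and 22.5 CPM at 16.7 mM. Replicate 4 at 16.7 mM lay within the range of the samples at 2.8 mM in both genotypes. *Nupr1* fell in *Pcbp2*βKO cells (log2 fold change -2.13 ± 0.61, adjusted p = 0.0126). In control cells the log2 fold change was -1.35 ± 0.70 (adjusted p = 0.214), and -2.05 (adjusted p = 0.000858) with the replicate block and -2.18 (adjusted p = 0.000171) without the 3 samples apart. *Atf3*, an early stress-induced bZIP factor, was at 17.97, 25.4 and 11.3 and 4.09, 4.83, 3.78 and 26.98 CPM in control cells at 2.8 and 16.7 mM. Its level in *Pcbp2*βKO cells was 8.96, 15.00, 6.55, 7.89 and 50.6 and 2.94, 2.49, 2.53, 16.95 and 1.73 CPM. A single sample of each of 3 groups stood far above the rest, and no glucose comparison of *Atf3* passed (adjusted p = 0.55 and 0.0837). With the replicate block the log2 fold change in control cells was -1.89 (adjusted p = 0.0386), and without the 3 samples apart it was -2.12 (adjusted p = 0.0181) in control and -2.78 (adjusted p = 0.00188) in *Pcbp2*βKO cells.

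*Ppp1r15a*, which encodes GADD34, the subunit that directs a phosphatase to eIF2α and so ends the response, fell in control cells. It was at 259, 389 and 186 CPM in control cells at 2.8 mM and at 142, 112, 98.6 and 219 CPM in control cells at 16.7 mM. The ranges overlapped through replicate 4 at 16.7 mM (log2 fold change -0.96 ± 0.30, adjusted p = 0.035). The *Pcbp2*βKO samples were at 138, 204, 127, 168 and 177 CPM at 2.8 mM and at 96.3, 85.4, 75.97, 166 and 115 CPM at 16.7 mM, and the log2 fold change of -0.60 ± 0.25 did not pass (adjusted p = 0.0792), while without the 3 samples apart it was -0.96 (adjusted p = 0.00276). The call in control cells was lost when replicate 1 or 2 at 2.8 mM or replicate 1, 2 or 3 at 16.7 mM was left out.

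The transcription factor genes *Cebpg* and *Atf5* fell in *Pcbp2*βKO cells. *Cebpg* encodes a bZIP protein that pairs with ATF4 on DNA. Among *Pcbp2*βKO samples it was at 149.6, 181, 158, 152 and 162 CPM at 2.8 mM and at 57.8, 67.3, 57.4, 99.7 and 67.5 CPM at 16.7 mM, with no overlap (log2 fold change -1.20 ± 0.27, adjusted p = 0.00235). In control cells it was at 81.5, 113 and 106 CPM and at 32.6, 33.6, 76.3 and 109 CPM, and the ranges overlapped through replicate 4 at 16.7 mM. Its change there was -0.67 ± 0.32 (adjusted p = 0.168), and -0.94 (adjusted p = 0.019) with the replicate block and -1.10 (adjusted p = 0.00399) without the 3 samples apart. *Atf5*, a relative of *Atf4* that is also regulated through upstream reading frames, was at 9.45, 5.78, 8.77, 8.43 and 10.9 CPM at 2.8 mM and 3.17, 2.75, 4.77, 5.41 and 5.94 CPM at 16.7 mM in *Pcbp2*βKO cells. The highest sample at 16.7 mM overlapped the lowest at 2.8 mM (log2 fold change -0.98 ± 0.22, adjusted p = 0.00283). In control cells it was at 8.26, 8.48 and 6.39 and 6.18, 5.04, 6.89 and 5.28 CPM (log2 fold change -0.40 ± 0.27, adjusted p = 0.346). *Atf5* shares 180 exonic bases with *Nup62* on the other strand, whose mean count was 2747 against 505 for *Atf5*.

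*Gdf15* and *Vldlr* fell in *Pcbp2*βKO cells as well. *Gdf15* encodes a stress-induced cytokine that acts on the hindbrain. Its level in *Pcbp2*βKO cells was 8.33, 7.25, 8.52, 8.22 and 14.7 CPM at 2.8 mM and 2.65, 2.01, 1.36, 6.95 and 3.97 CPM at 16.7 mM, with no overlap, and it fell by 1.47 on the log2 scale (SE 0.36, adjusted p = 0.00449). In control cells it was at 17.2, 18.5 and 12.8 and 11.8, 5.27, 6.82 and 10.8 CPM, also without overlap, but the change of -0.90 ± 0.42 did not pass (adjusted p = 0.162), while with the replicate block it was -1.16 (adjusted p = 0.0152) and without the 3 samples apart -1.04 (adjusted p = 0.0296). *Vldlr*, the gene of a receptor that takes up triglyceride-rich lipoproteins, was at 114, 68.3, 100.3, 87.8 and 64.8 CPM at 2.8 mM and 50.03, 53.4, 50.3, 79.03 and 41.6 CPM at 16.7 mM in *Pcbp2*βKO cells. Replicate 4 at 16.7 mM overlapped the samples at 2.8 mM, and *Vldlr* fell (log2 fold change -0.66 ± 0.20, adjusted p = 0.0169). That call was lost without replicate 1 at 2.8 mM or replicate 5 at 16.7 mM. In control cells *Vldlr* was at 98.8, 64.98 and 86.5 and 42.7, 52.3, 46.3 and 73.4 CPM, with a change of -0.64 ± 0.24 (adjusted p = 0.078), and of -0.74 (adjusted p = 0.00945) with the replicate block and -0.85 (adjusted p = 0.00634) without the 3 samples apart.

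*Ddit4*, which encodes the mTORC1 inhibitor REDD1, went the other way. It was at 1.39, 1.15 and 1.23 CPM in control cells at 2.8 mM and at 5.32, 2.05, 2.84 and 1.60 CPM in control cells at 16.7 mM, without overlap, and rose by 1.23 on the log2 scale (SE 0.35, adjusted p = 0.0213). The *Pcbp2*βKO samples were at 1.81, 1.63, 1.28, 1.51 and 2.42 CPM at 2.8 mM and 2.58, 2.59, 2.63, 2.56 and 3.12 CPM at 16.7 mM, also without overlap, and the change of 0.64 ± 0.28 did not pass (adjusted p = 0.0918). These are low levels, and the call in control cells was lost when any 1 of the 3 samples at 2.8 mM or replicate 1 at 16.7 mM was left out. It was also lost with total counts (0.79, adjusted p = 0.0828) and on the TPM scale (0.26, adjusted p = 0.456), where the change in *Pcbp2*βKO cells was -0.32. On that scale the median of all genes shifted by -0.56 in control and -0.71 in *Pcbp2*βKO cells between the glucose concentrations.

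The other 4 genes of the arm were not called in any comparison. *Chac1*, for an enzyme that degrades glutathione, was at 104 ± 13.7 and 131 ± 28.7 CPM in control cells at low and high glucose (log2 fold change 0.34 ± 0.18, adjusted p = 0.213), above 0 where most of the arm lay below. In *Pcbp2*βKO cells, where it was at 92.4 ± 15.6 and 110.4 ± 13.4 CPM, *Chac1* changed by 0.26 ± 0.15 (adjusted p = 0.208). Its sign turned with total counts, to -0.06 and -0.23, and on the TPM scale, to -0.47 (adjusted p = 0.0461) and -0.76 (adjusted p = 0.000319). *Sesn2*, for a leucine sensor upstream of mTORC1, was at 146 ± 26.02 and 116 ± 24.2 CPM in control cells and 118 ± 21.9 and 110.2 ± 21.96 CPM in *Pcbp2*βKO cells at low and high glucose and changed by -0.33 ± 0.20 in control and -0.10 ± 0.17 in *Pcbp2*βKO cells. *Cebpb*, a bZIP factor that pairs with ATF4 and CHOP, stayed under 1 CPM in every sample, with changes of -0.37 ± 0.39 and -0.70 ± 0.33. *Stc2*, for a secreted glycoprotein, was at 0.711 to 4.15 CPM in control cells at 2.8 mM, 0.0504 to 1.91 CPM in control cells at 16.7 mM, 0.0599 to 1.02 CPM in *Pcbp2*βKO cells at 2.8 mM and 0 to 1.38 CPM in *Pcbp2*βKO cells at 16.7 mM, where replicate 5 had no count. With the replicate block its log2 fold change in control cells was -2.34 (adjusted p = 0.0382), against -1.46 ± 1.14 (adjusted p = 0.432) without it.

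**Figure D3:**
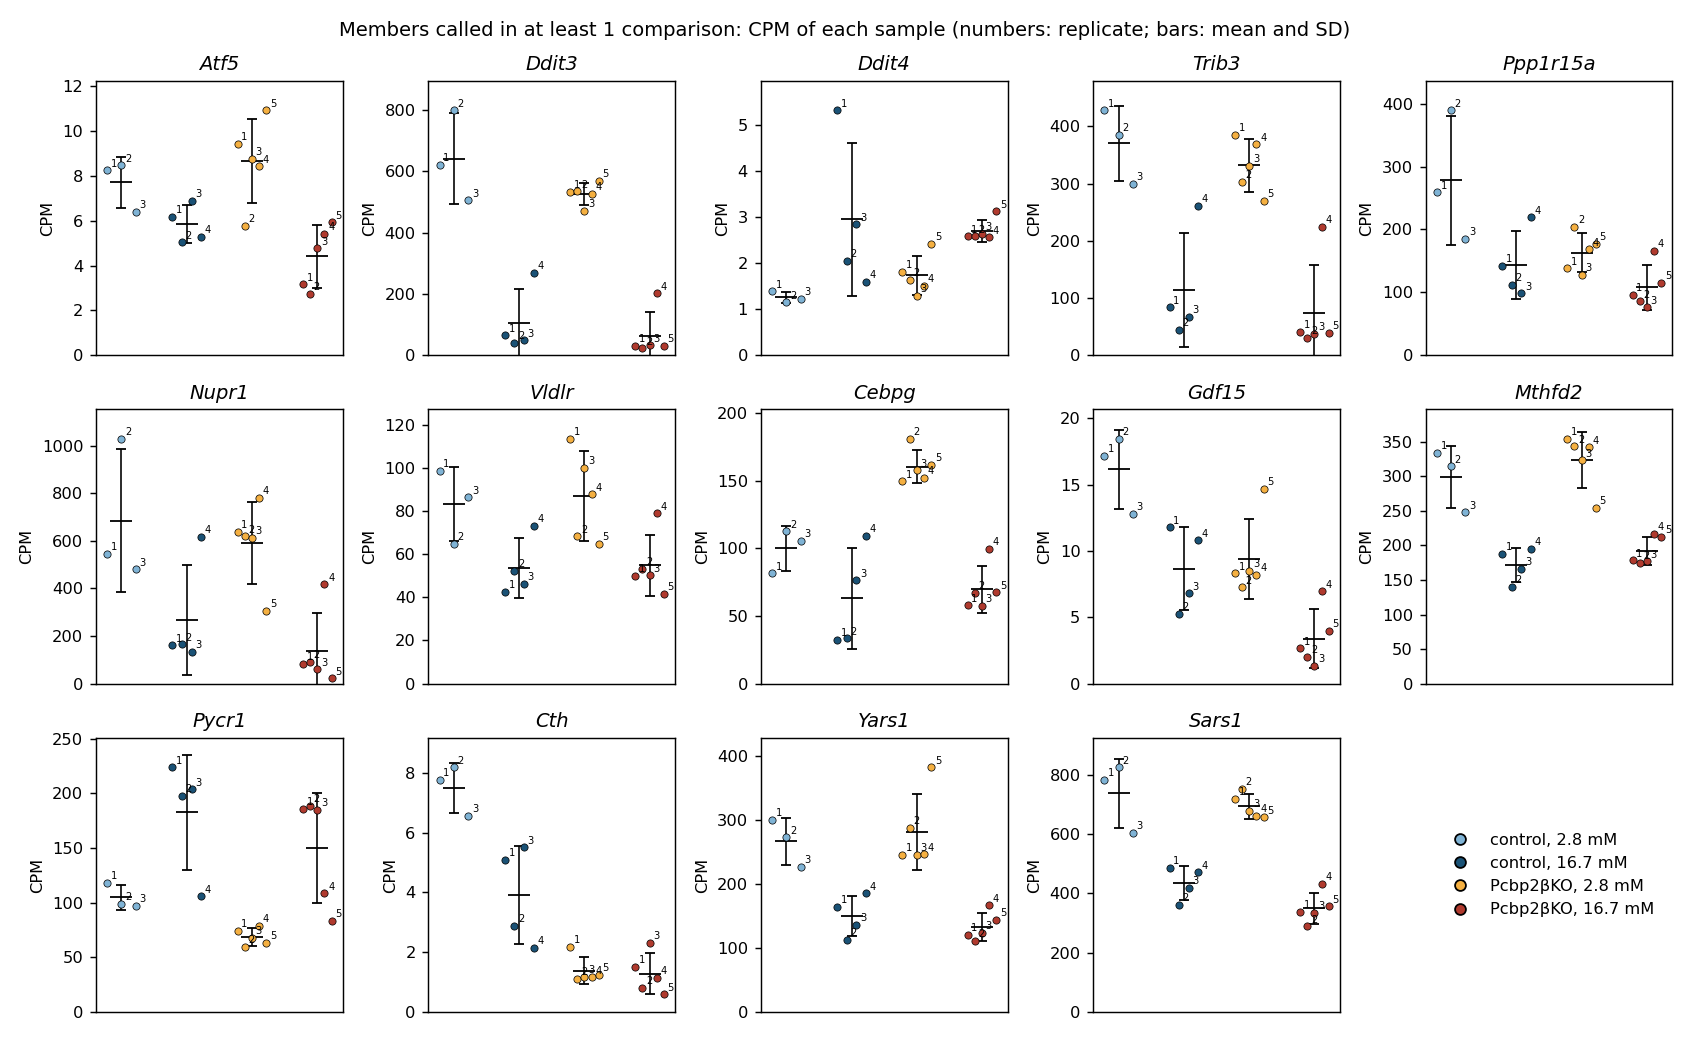
CPM of each sample for the 14 members called in at least 1 comparison, by group, with the replicate number beside each point and bars for the mean and SD; each vertical axis starts at 0. In *Ddit3*, *Trib3* and *Nupr1* replicate 4 at 16.7 mM stands above the other samples of its group in both genotypes, and in *Mthfd2*, *Sars1* and *Yars1* the groups at 2.8 and 16.7 mM do not overlap.

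With all samples, the genes for the eIF2α kinases themselves were not called in any comparison. *Eif2ak1*, the heme-regulated kinase HRI, was at 89.1 ± 14.1 and 71.6 ± 3.30 CPM in control cells and 76.6 ± 12.4 and 66.7 ± 4.86 CPM in *Pcbp2*βKO cells at low and high glucose and changed by -0.32 ± 0.14 and, in *Pcbp2*βKO cells, by -0.20 ± 0.12 on the log2 scale. *Eif2ak4*, the kinase GCN2 that senses uncharged tRNA, was at 15.9 ± 2.87 and 15.1 ± 1.03 CPM in control cells and 15.8 ± 1.60 and 13.2 ± 1.96 CPM in *Pcbp2*βKO cells and changed by -0.07 ± 0.16 and -0.26 ± 0.13. *Eif2ak2*, the double-stranded RNA kinase PKR, was at 6.52 ± 2.02 CPM in *Pcbp2*βKO cells at 2.8 mM and 9.65 ± 2.14 CPM in *Pcbp2*βKO cells at 16.7 mM. Its change of 0.56 ± 0.20 had an adjusted p of 0.043 but did not reach the fold limit, while without the 3 samples apart it was called, at 0.68 (adjusted p = 0.0262), and on the TPM scale it was -0.67. It was 0.28 ± 0.25 (adjusted p = 0.492) in control cells.

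Among the 9 enzyme genes, no gene rose and 1 fell in control cells and 1 rose and 1 fell in *Pcbp2*βKO cells, with medians of 0.06 and 0.08, close to those of all genes. The shares called were 11.1% and 22.2%, against 13.8% and 23.8% of all genes. *Mthfd2*, for the mitochondrial enzyme that oxidises methylene-tetrahydrofolate, fell in both genotypes. It was at 334, 315 and 248 CPM in control cells at 2.8 mM and at 188, 139.9, 166 and 195 CPM in control cells at 16.7 mM. Among *Pcbp2*βKO samples it was at 354, 344, 324, 342 and 255 CPM at 2.8 mM and at 178, 175, 177, 217 and 212 CPM at 16.7 mM. The groups did not overlap in either genotype. The log2 fold changes were -0.80 ± 0.15 (adjusted p = 0.00278) and -0.75 ± 0.13 (adjusted p = 0.00029), and both calls held when any 1 sample was left out.

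*Pycr1*, for the enzyme of the last step of proline synthesis, rose in *Pcbp2*βKO cells. It was at 74.1, 59.4, 67.7, 78.7 and 63.2 CPM at 2.8 mM and at 186, 188, 185, 109 and 83.6 CPM at 16.7 mM, where replicates 4 and 5 were nearest to the samples at 2.8 mM (log2 fold change 1.13 ± 0.22, adjusted p = 0.000898). In control cells it was at 118, 98.98 and 97.3 CPM and at 224, 198, 204 and 106 CPM, with replicate 4 at 16.7 mM within the range at 2.8 mM. The change there was 0.80 ± 0.27 (adjusted p = 0.0507), and 0.89 (adjusted p = 0.00814) with the replicate block and 0.97 (adjusted p = 0.000108) without the 3 samples apart. With total counts in edgeR the change of *Pycr1* was 0.38 (adjusted p = 0.231) in control and 0.62 (adjusted p = 0.0104) in *Pcbp2*βKO cells. On the TPM scale it was instead -0.09 and -0.05, so its direction depends on the scale. *Aldh18a1*, for the enzyme of the first steps of the same pathway, changed by 0.40 ± 0.17 (adjusted p = 0.106) and 0.45 ± 0.14 (adjusted p = 0.0182), under the fold limit, and on the TPM scale by -0.40 and -0.61. It was at 194 ± 31.8 and 257 ± 37.9 CPM in control cells and 146 ± 22.2 and 199 ± 25.4 CPM in *Pcbp2*βKO cells at low and high glucose.

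With all samples, no gene of serine or asparagine synthesis was called for glucose. *Asns*, for asparagine synthetase, was at 629 ± 109, 654 ± 90.1, 586 ± 62.8 and 619.7 ± 86.02 CPM in control cells at low and high glucose and in *Pcbp2*βKO cells at low and high glucose. Its log2 fold changes with glucose were 0.06 ± 0.16 (adjusted p = 0.866) and 0.08 ± 0.13 (adjusted p = 0.712). *Phgdh*, *Psat1* and *Psph*, for the enzymes that make serine from a glycolytic intermediate, changed by 0.04 ± 0.30, 0.44 ± 0.27 and 0.06 ± 0.20 in control cells and by 0.14 ± 0.25, 0.52 ± 0.22 and 0.05 ± 0.16 in *Pcbp2*βKO cells. None of these 3 was called with all samples, and without the 3 samples apart *Psat1* was called in *Pcbp2*βKO cells, at 0.80 (adjusted p = 0.00033). At low and high glucose, *Phgdh* was at 154 ± 9.57 and 158 ± 54.1 CPM in control cells and 129 ± 29.96 and 143 ± 49.4 CPM in *Pcbp2*βKO cells. *Psat1* was at 63.3 ± 9.11 and 85.7 ± 17.3 CPM in control cells and 57.8 ± 6.53 and 82.95 ± 30.95 CPM in *Pcbp2*βKO cells, and *Psph* at 56.8 ± 11.7 and 59.3 ± 8.37 CPM in control cells and 43.4 ± 5.55 and 44.8 ± 10.02 CPM in *Pcbp2*βKO cells. On the TPM scale *Asns*, *Phgdh*, *Psat1* and *Psph* lay below 0 instead, from -0.82 to -0.34 in control and from -1.04 to -0.60 in *Pcbp2*βKO cells. *Shmt2*, for the mitochondrial enzyme that turns serine into glycine, was at 98.02 ± 16.1 and 72.3 ± 12.2 CPM in control cells and 85.3 ± 10.2 and 68.6 ± 3.67 CPM in *Pcbp2*βKO cells and changed in control cells by -0.44 ± 0.15 (adjusted p = 0.0501), and by -0.32 ± 0.12 (adjusted p = 0.0609) in *Pcbp2*βKO cells.

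Of the 8 genes for cytosolic aminoacyl-tRNA synthetases, which attach amino acids to their tRNA, none rose and 2 fell in each genotype, *Yars1* (tyrosine) and *Sars1* (serine). That was 25% in each genotype, against 13.8% of all genes in control and 23.8% in *Pcbp2*βKO cells. *Yars1* was at 301, 273 and 227 CPM in control cells at 2.8 mM and at 165, 113, 137 and 186 CPM in control cells at 16.7 mM. Its level in *Pcbp2*βKO cells was 246, 288, 246, 247 and 383 CPM at 2.8 mM and 121, 111, 124, 167 and 144 CPM at 16.7 mM. The groups did not overlap in either genotype. The log2 fold changes were -0.83 ± 0.20 (adjusted p = 0.00835) and -1.08 ± 0.16 (adjusted p = 0.000105).

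*Sars1* was at 782, 825 and 604 CPM in control cells at 2.8 mM and at 487, 362, 419 and 471 CPM in control cells at 16.7 mM. The *Pcbp2*βKO samples were at 718, 753, 678, 661 and 657 CPM at 2.8 mM and at 339, 289, 335, 431 and 357 CPM at 16.7 mM. These groups did not overlap either, and the log2 fold changes were -0.76 ± 0.15 (adjusted p = 0.00328) and -0.99 ± 0.13 (adjusted p = 2.7e-05). The calls of *Yars1* and *Sars1* held when any 1 sample was left out. *Gars1*, *Nars1*, *Tars1* and *Wars1* were not called, with log2 fold changes of 0.02 ± 0.12, 0.09 ± 0.14, 0.07 ± 0.15 and -0.18 ± 0.19 in control cells and of 0.13 ± 0.10, -0.11 ± 0.11, -0.04 ± 0.13 and 0.24 ± 0.16 in *Pcbp2*βKO cells. At low and high glucose, *Gars1* was at 468 ± 53.1 and 476 ± 30.8 CPM in control cells and 409.7 ± 41.9 and 448 ± 11.8 CPM in *Pcbp2*βKO cells. *Nars1* was at 509 ± 19.8 and 542 ± 96.6 CPM in control cells and 469 ± 32.97 and 435 ± 39.4 CPM in *Pcbp2*βKO cells. *Tars1* was at 192 ± 5.75 and 201 ± 25.4 CPM in control cells and 168 ± 36.9 and 164 ± 6.16 CPM in *Pcbp2*βKO cells, and *Wars1* at 246 ± 62.1 and 218 ± 38.1 CPM in control cells and 152 ± 26.7 and 179 ± 22.6 CPM in *Pcbp2*βKO cells. On the TPM scale *Gars1*, *Nars1* and *Tars1* in control cells and *Gars1* and *Wars1* in *Pcbp2*βKO cells, which were above 0 in edgeR, lay between -0.77 and -0.71 and between -0.89 and -0.75. *Iars1*, at 264 to 303 and 209 to 253 CPM in control cells and 229 to 285 and 199 to 219 CPM in *Pcbp2*βKO cells, had no overlap between the glucose concentrations in either genotype, but its changes of -0.27 ± 0.12 (adjusted p = 0.119) and -0.27 ± 0.10 (adjusted p = 0.0417) stayed under the fold limit. The median over the 8 synthetase genes was -0.22 in control and -0.19 in *Pcbp2*βKO cells.

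*Mars1* (methionine) was at 332 ± 59.1 and 273 ± 45.5 CPM in control cells at low and high glucose (log2 fold change -0.29 ± 0.14, adjusted p = 0.177) and at 390.3 ± 7.27 and 278 ± 15.7 CPM in *Pcbp2*βKO cells, where the change of -0.49 ± 0.12 (adjusted p = 0.00346) lay under the fold limit. Its counts were divided between transcripts in proportions that differed with glucose. Of its transcripts Mars1-201 and Mars1-206, which share the same first and last bases, Mars1-206 holds 22 exons and Mars1-201 holds 21. The additional exon is the twentieth of Mars1-206 and lies at chr10:127132586-127132609 of GRCm39 on the minus strand, within the coding part of the gene. It is 24 bases long, a multiple of 3, so that it keeps the reading frame. In these models (GENCODE vM39) Mars1-206 is 2963 bases long and Mars1-201 is 2939, whereas the deposited lengths are 2962 and 2939, so the model used for counting differed slightly from the one shown. The exon, shown because the current models of both transcripts differ by it, reads, with 3 intronic bases on each side in lower case and the exon in capitals (chr10:127132583-127132612):
Mars1-206: tagCTAGAAGAGTCCTTGGAGTTAAAGgta

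Mars1-206 took 34.3%, 38.6% and 24.9% of the *Mars1* counts in the 3 samples of control cells at 2.8 mM and 3.34%, 2.40%, 4.08% and 10.2% in the 4 of control cells at 16.7 mM. Its share in *Pcbp2*βKO cells was 35.4%, 40.5%, 32.6%, 36.0% and 24.6% at 2.8 mM and 4.01%, 3.53%, 2.35%, 7.41% and 2.27% at 16.7 mM. The groups did not overlap in either genotype, and replicate 4 had the highest share at 16.7 mM in both. The mean share went from 32.6% to 5.00% in control cells (exact two-sided permutation test, p = 0.0571, the smallest that 3 against 4 samples allow) and from 33.8% to 3.91% in *Pcbp2*βKO cells (exact p = 0.00794, the smallest that 5 against 5 allow). Over the 34 member transcripts compared, the Benjamini-Hochberg adjusted values were 0.352 and 0.0675, so neither passes. Between the genotypes the share differed by 1.24 percentage points at 2.8 mM (exact p = 0.821) and by -1.08 at 16.7 mM (exact p = 0.54). In CPM, Mars1-206 went from 109.5 ± 34.4 to 13.7 ± 9.82 in control cells and from 132 ± 22.4 to 10.97 ± 6.04 in *Pcbp2*βKO cells, while Mars1-201 went from 199 ± 40.7 to 251.8 ± 46.04 and from 235 ± 31.7 to 258 ± 13.6. Without the counts of Mars1-206 the log2 fold changes of *Mars1* were 0.22 and 0.05, of the opposite sign. The additional exon lies beyond the end of *Ddit3*, which overlaps *Mars1* on the other strand and was also lower at 16.7 mM with replicate 4 highest, and the part of reads from *Ddit3* in the share was not tested. This transcript was chosen after its values were seen, and its counts are Kallisto's estimate of how reads divide between near-identical transcripts. The share of all transcripts that separate by glucose in this way was not counted.

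**Figure D4:**
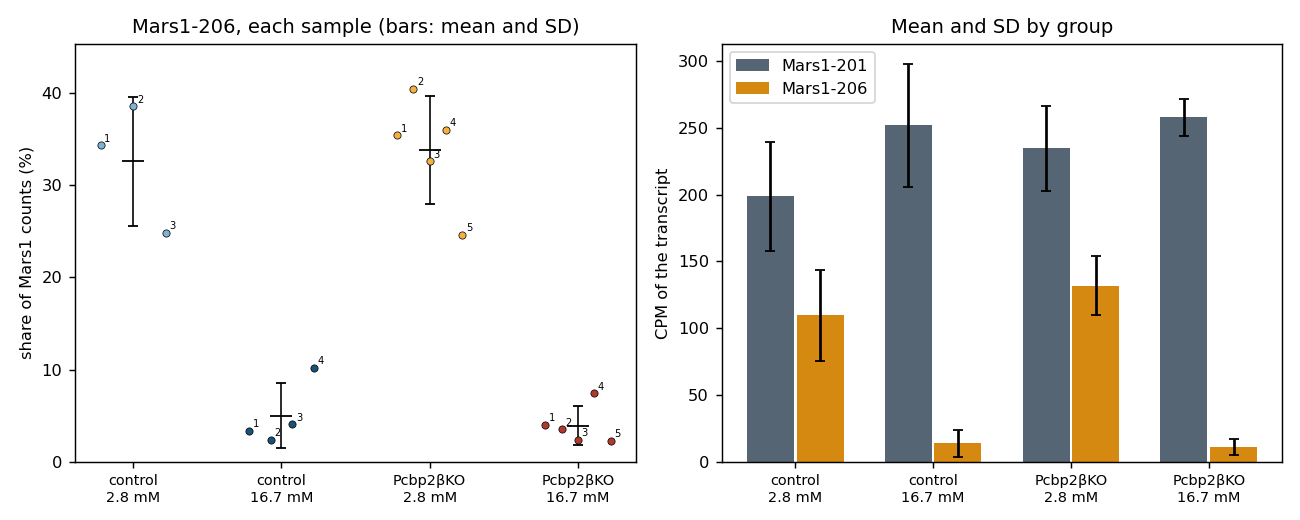
Left, share of the estimated counts of *Mars1* given to transcript Mars1-206 (percent) in each sample, with bars for the mean and SD. Right, mean CPM and SD of Mars1-206 and Mars1-201 by group. The share lies between 24.6% and 40.5% at 2.8 mM and between 2.27% and 10.2% at 16.7 mM, and Mars1-201 does not show that drop.

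ATF4 and its C/EBP partners are known to bind a composite element, and the promoters of the members were searched for its 8-letter core, TGATGNAA, on both strands (TTNCATCA on the other). The promoter sequences are from RefSeq (GRCm38.p6) and span 250 bases before to 50 bases after a start. Of the 32 members in that table, 11 (34.4%) held the core in at least 1 promoter, as did 4.51% of the 27025 symbols in the table and 3.97% of its 32851 promoters. The members were listed partly because they are known ATF4 targets, so the element is not independent of the list. The 11 windows are shown to compare the core (in capitals, with 11 bases on each side), read along the strand of the gene:
Trib3: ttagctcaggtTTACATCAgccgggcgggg
Nupr1: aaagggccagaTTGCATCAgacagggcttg
Vldlr: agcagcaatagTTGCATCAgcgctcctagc
Pycr1: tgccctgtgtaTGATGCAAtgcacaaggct
Yars1: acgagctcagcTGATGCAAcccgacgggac
Atf3: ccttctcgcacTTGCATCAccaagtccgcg
Chac1: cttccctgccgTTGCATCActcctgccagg
Asns: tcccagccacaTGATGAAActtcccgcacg
Iars1: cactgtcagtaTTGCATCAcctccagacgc
Gars1: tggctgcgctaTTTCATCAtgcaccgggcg
Tars1: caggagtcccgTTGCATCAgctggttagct

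The first 5 of these windows belong to members called in a glucose comparison and the other 6 to members that were not, while 8 of the 21 members without the core were called. The core of *Trib3* began at +15 from the start (chr2:152185948-152185977, minus strand, GRCm39, where each window matched once), that of *Nupr1* at -110 (chr7:126224734-126224763, minus strand) and that of *Yars1* at +4 (chr4:129083688-129083717, plus strand), all of which lay below 0 at high glucose. The core of *Pycr1* began at -103 (chr11:120534659-120534688, minus strand), and *Pycr1* rose in *Pcbp2*βKO cells. The core of *Asns* began at -23 (chr6:7693214-7693243, minus strand) and that of *Chac1* at -193 (chr2:119181519-119181548, plus strand), and neither gene was called. Those of *Vldlr*, *Atf3*, *Iars1*, *Gars1* and *Tars1* began at -200 (chr19:27194209-27194238, plus strand), -110 (chr1:190915622-190915651, minus strand), +8 (chr13:49835602-49835631, plus strand), -30 (chr6:55014945-55014974, plus strand) and -15 (chr15:11399741-11399770, minus strand). A match is a match of letters and no measurement of binding.

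Other genes of the pathway were counted in the same fit. Of 15 further genes that control the response, 2 rose and 3 fell with glucose in control cells and 1 rose and 3 fell in *Pcbp2*βKO cells. The shares called were 33.3% and 26.7%, against 13.8% and 23.8% of all genes. *Dnajc3*, for the chaperone p58IPK that restrains PERK, rose by 1.34 in control cells (SE 0.29, adjusted p = 0.00521) and by 1.27 in *Pcbp2*βKO cells (SE 0.23, adjusted p = 0.000538) on the log2 scale. *Impact*, whose product inhibits GCN2, fell by 0.88 (SE 0.19, adjusted p = 0.0049) and 0.95 (SE 0.16, adjusted p = 0.000221). Of 19 further ATF4 target genes, 2 rose and 4 fell in control cells (31.6% called) and 4 rose and 5 fell in *Pcbp2*βKO cells (47.4% called). *Cbs*, for the enzyme that makes cystathionine, rose in control cells (log2 fold change 2.00 ± 0.43), and the glycine transporter gene *Slc6a9* fell (-1.18 ± 0.25). In *Pcbp2*βKO cells the largest changes among the called genes of this list were *Bcat1* (2.90 ± 0.57), for a branched-chain aminotransferase, and *Fgf21* (-1.52 ± 0.35), for a hormone.

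The remaining synthetases and folate enzymes showed calls in both directions. In control cells the shares called were 8.33% (cytosolic synthetases), 29.4% (mitochondrial) and 20% (one-carbon), against 13.8% of all genes. In *Pcbp2*βKO cells they were 25%, 41.2% and 30%, against 23.8% of all genes. Of the 12 other cytosolic synthetase genes, none rose and 1 fell in control cells, *Eprs1* (-0.80 ± 0.18), and 1 rose and 2 fell in *Pcbp2*βKO cells, with *Lars1* at 0.68 ± 0.14 and *Eprs1* at -1.16 ± 0.16. Of the 17 mitochondrial synthetase genes, 1 rose and 4 fell in control cells and 2 rose and 5 fell in *Pcbp2*βKO cells. *Sars2* was at 0.71 ± 0.22 and 1.11 ± 0.18 and *Wars2* at -1.38 ± 0.25 and -1.37 ± 0.21, so that the mitochondrial serine enzyme rose where the cytosolic one fell. On the TPM scale *Lars1* in *Pcbp2*βKO cells was instead at -0.44 and *Sars2* at -0.10 and 0.11. The direction of *Lars1* there and of *Sars2* in control cells thus depends on the scale, as does the size of the rise of *Sars2* in *Pcbp2*βKO cells. Of the 10 other one-carbon enzyme genes, 1 rose and 1 fell in control cells and 2 rose and 1 fell in *Pcbp2*βKO cells. *Gldc*, of the glycine cleavage system, was at 2.72 ± 0.74 and 3.67 ± 0.63, and *Mtr*, methionine synthase, at -0.97 ± 0.21 and -1.30 ± 0.18.

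Between the genotypes few members differed. At 2.8 mM, 1 of 35 members was called in *Pcbp2*βKO against control cells, and 2.04% of all genes were called (0.255% higher and 1.78% lower). At 16.7 mM, 1 of 35 was called, against 1.71% of all genes (0.29% higher and 1.42% lower). The called gene was *Cth* in both comparisons, which share no sample. The median log2 fold change of the members was -0.19 at 2.8 mM and -0.25 at 16.7 mM, against 0.03 and 0.01 for all genes. Of 35 members, 28 and 31 lay below 0, and the share of all genes below 0 was not counted. These counts depend on the scale. At 2.8 mM some members, such as *Sars1* and *Asns*, lay above 0 with total counts and on the TPM scale. The medians of all genes there were 0.15 and 0.13. The ranges of the genotypes did not overlap for *Cebpg*, *Pycr1* and *Cth* at 2.8 mM (10.9% of all genes) and for *Nars1* and *Tars1* at 16.7 mM (4.49% of all genes).

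**Figure D5:**
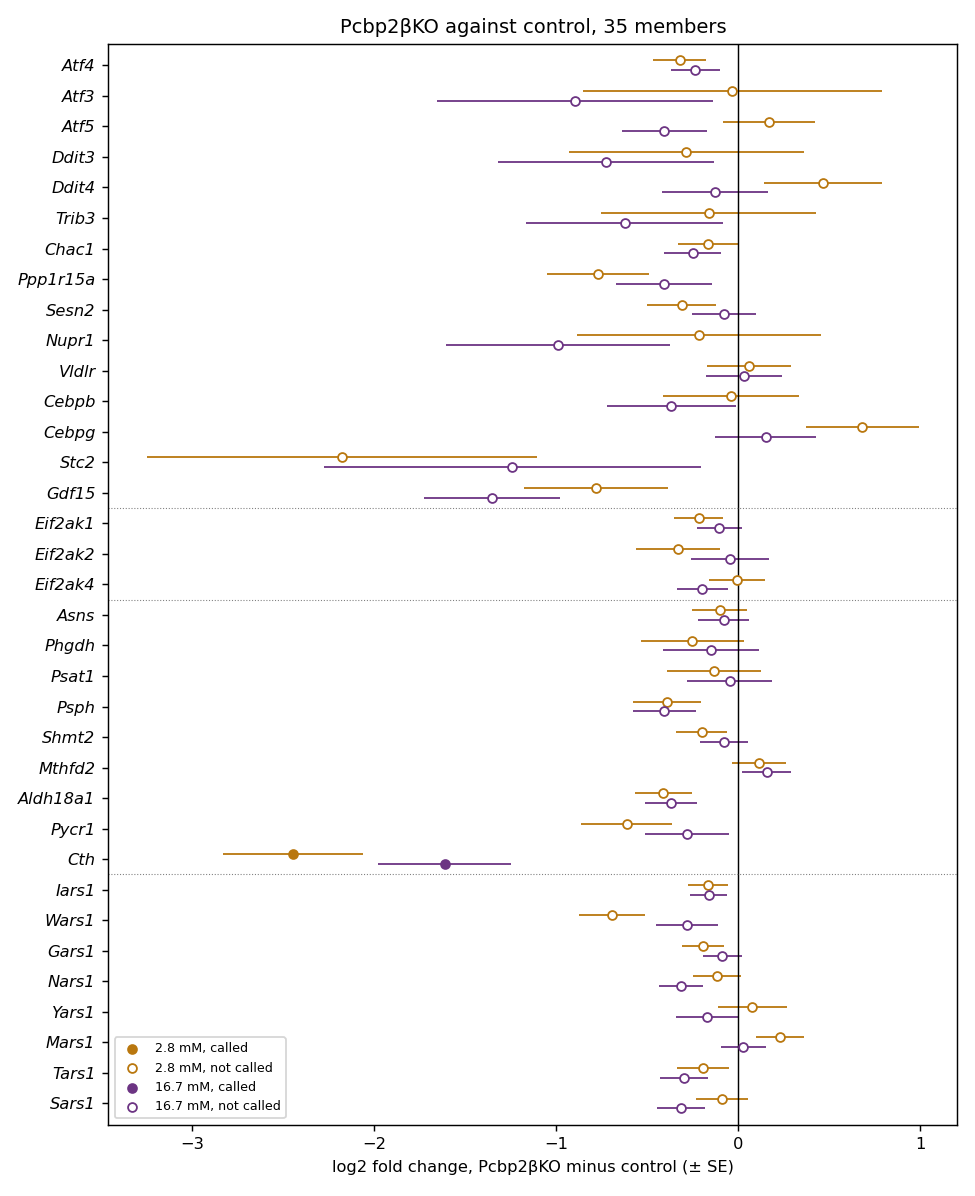
Log2 fold change of each member between *Pcbp2*βKO and control cells at 2.8 mM and at 16.7 mM glucose, with bars of 1 SE from edgeR; filled points were called and open points were not. *Cth* is the filled gene at both concentrations, and 28 (2.8 mM) and 31 (16.7 mM) of the 35 points lie left of 0.

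*Cth* encodes cystathionine γ-lyase, which makes cysteine in the transsulfuration pathway, and was lower in *Pcbp2*βKO cells. At 2.8 mM it was at 7.77, 8.19 and 6.56 CPM in control cells and at 2.18, 1.11, 1.18, 1.16 and 1.24 CPM in *Pcbp2*βKO cells, with no overlap (log2 fold change -2.45 ± 0.39, adjusted p = 0.00117). At 16.7 mM it was at 5.09, 2.89, 5.51 and 2.14 CPM in control cells and at 1.52, 0.803, 2.33, 1.14 and 0.591 CPM in *Pcbp2*βKO cells. There the ranges overlapped, and the log2 fold change was -1.61 ± 0.37 (adjusted p = 0.0259). The call at 16.7 mM was lost without control replicate 1 or 3 or *Pcbp2*βKO replicate 2 or 4, and when the fit held only the groups compared. With glucose, *Cth* did not overlap between the concentrations in control cells but was not called (-0.94 ± 0.41, adjusted p = 0.127), and in *Pcbp2*βKO cells its change was -0.11 ± 0.35.

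Other members were not called with all samples in the main fit, and those named next were called in another fit. *Wars1* (tryptophan) was at 175 to 292 CPM in control and 117 to 175 CPM in *Pcbp2*βKO cells at 2.8 mM (log2 fold change -0.70 ± 0.18, adjusted p = 0.0541). With DESeq2 it was at -0.70 (adjusted p = 0.0201) and with the replicate block at -0.62 (adjusted p = 0.00903). *Ppp1r15a* at 2.8 mM was at -0.77 ± 0.28 (adjusted p = 0.214), and at -0.93 (adjusted p = 0.0154) with the block. *Pycr1* at 2.8 mM had a log2 fold change of -0.61 ± 0.25 (adjusted p = 0.289), and of -0.60 (adjusted p = 0.00863) without the 3 samples apart, all of which were at 16.7 mM. *Gdf15* at 16.7 mM had a log2 fold change of -1.35 ± 0.37 (adjusted p = 0.0812), and of -1.995 (adjusted p = 0.00451) without the 3 samples apart. With all samples it was at -1.37 (adjusted p = 0.0122) in DESeq2 and at -1.60 (adjusted p = 0.00696) with the replicate block. *Ddit3* at 16.7 mM, at -0.73 ± 0.60 with all samples (adjusted p = 0.723), was at -0.84 (adjusted p = 0.0313) without the 3 samples apart. *Trib3* went from -0.62 ± 0.54 (adjusted p = 0.743) to -0.86 (adjusted p = 0.0455). With all samples both genes were far from the threshold, and the samples left out include replicate 4 of each genotype, where both genes were highest. By lists, the ATF4 arm had no call in either comparison (medians -0.16 and -0.41), as had the kinases (-0.22 and -0.10) and the synthetases (-0.14 and -0.23), and the enzymes had *Cth* alone (-0.25 and -0.15). Among the further pathway genes, *Bcat1* was called at both concentrations, at -5.20 ± 0.63 (adjusted p = 6.42e-05) and -3.68 ± 0.55 (adjusted p = 0.000744), and no gene of the other further lists was called. At 2.8 mM, *Ppy* was higher in each *Pcbp2*βKO sample than in any control sample, and the summed α and δ cell markers reached higher levels in *Pcbp2*βKO cells with ranges that overlapped, as given above, and their part in these values was not tested.

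The difference between the glucose responses of *Pcbp2*βKO and control cells, tested as an interaction, was called for 0 of 35 members by edgeR, and 0.00439% of all genes were called. None of the members had an unadjusted p under 0.05 in edgeR, where the smallest was 0.115, and DESeq2 gave 0 calls and a smallest unadjusted p of 0.0953. Genes such as *Trib3*, *Nupr1*, *Gdf15* and *Atf5*, called in *Pcbp2*βKO cells and not in control cells, were therefore not shown to respond differently. The interaction estimates were -0.44 ± 0.89 for *Ddit3*, -0.46 ± 0.81 for *Trib3*, -0.78 ± 0.92 for *Nupr1*, -0.57 ± 0.55 for *Gdf15* and -0.58 ± 0.35 for *Atf5* on the log2 scale. The standard errors are as large as several of the estimates, and a p that misses the threshold does not show that the genotypes responded alike.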

How the data were processed

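Per the methods of the study, the authors sorted tdTomato+ β cells, sequenced paired-end libraries and pseudoaligned the reads with Kallisto to the mouse transcriptome. They deposited, for each sample and transcript, estimated counts, which are not normalized between samples, TPM scaled to the same total in every sample, and lengths. The versions and the strand of the libraries are not given in the sources used here. Estimated counts were summed by gene, rounded, scaled by TMM and kept by edgeR's expression filter. All 17 samples were fitted with edgeR 4.0.16 (R 4.3.3) as 4 group means, the quasi-likelihood test was adjusted by Benjamini-Hochberg over 22784 genes, and a call needed a fold change over 1.5 at an adjusted p under 0.05. The authors' model held a batch that no label gives, so none entered and the part of batch was not tested. Standard errors came from the estimate and its F. DESeq2 1.42.0, limma 3.58.1 on log2(TPM + 0.1) and log2(TPM + 1), other scalings and fewer samples were alternatives, and edgeR was tested on simulated data.

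Members and lists were chosen with earlier results of these data known. Members called in any comparison, and also *Atf4* and *Atf3*, are given for every sample and the others by group, and from each further list at most the called gene with the largest change in each direction is named. Control samples at both glucose concentrations deviated together by number (correlations across genes 0.199, 0.123 and 0.258, each above 0.1), so blocked values are given for that comparison. In every other comparison at least 1 pair was below 0.1. Promoters were from RefSeq (GRCm38.p6), and gene models from GENCODE vM39 (GRCm39). Exact permutation tests used scipy 1.17.1.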

Additional observations from a re-analysis of the deposited data

Results flagged for a closer look

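In 17 of 108 groups of 4 or 5 samples, the gap between 1 sample and its nearest neighbour took more of the group's range than Dixon's 95% critical value for that number of samples. For independent groups of normally distributed values, chance would give about 1 in 20. These groups hold members measured in the same samples, so 17 of 108 cannot be set against that share. In 9 of the 17, the sample was replicate 4 at 16.7 mM and was the highest of its group. *Ddit3* was at 269 CPM in that control sample, where the other 3 lay between 39.3 and 64.7, and at 202 CPM in that *Pcbp2*βKO sample, where the other 4 lay between 22.7 and 32.2. *Nupr1* was at 615 CPM in control replicate 4 (others 132 to 164) and at 418 CPM in *Pcbp2*βKO replicate 4 (others 22.5 to 92.4). *Atf3* was at 26.98 CPM (others 3.78 to 4.83) and at 16.95 CPM (others 1.73 to 2.94) in the same samples. In *Pcbp2*βKO replicate 4 at 16.7 mM, *Trib3* was at 224 CPM (others 30.2 to 40.3), *Cebpg* at 99.7 CPM (others 57.4 to 67.5) and *Stc2* at 1.38 CPM (others 0 to 0.185). Over all genes, the deviations of these samples numbered 4 from their group means had a correlation of 0.354, and they were the highest of their group in 12 (control) and 15 (*Pcbp2*βKO) of the 35 members and the lowest in 11 and 5, while control replicate 1 at 16.7 mM was the highest in 16. What a replicate number stands for is not given in the labels, and the part of the sample in these values was not tested.

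*Pcbp2*βKO replicate 5 stood apart in 5 groups. At 2.8 mM it was highest for *Atf3* at 50.6 CPM (others 6.55 to 15.00), for *Gdf15* at 14.7 CPM (others 7.25 to 8.52), for *Eif2ak4* at 18.6 CPM (others 14.7 to 15.6) and for *Tars1* at 234 CPM (others 146 to 155). At 16.7 mM it was highest for *Ddit4* at 3.12 CPM (others 2.56 to 2.63). *Cth* was at 2.18 CPM in *Pcbp2*βKO replicate 1 at 2.8 mM (others 1.11 to 1.24). In control replicate 3 at 16.7 mM, *Eif2ak4* was lowest at 13.6 CPM (others 15.6 to 15.7) and *Nars1* highest at 686 CPM (others 481 to 506).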

How the results depend on the processing

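With total counts in place of TMM, 15 members were called for glucose in control cells and 21 in *Pcbp2*βKO cells, and with limma on log2(TPM + 0.1), on log2(TPM + 1) and without a filter the counts were 29, 26 and 24 and 32, 28 and 31. Of all 22784 genes, 4837 and 7851 were called with total counts. The limma settings called 8902, 6975 and 7899 genes in control cells and 12449, 8831 and 11776 in *Pcbp2*βKO cells, of 22784, 22784 and 45702. Total counts moved the median of all genes by -0.35 and -0.47, and with log2(TPM + 0.1) higher genes made up 4.97% and 5.27% of all calls. *Pycr1* reversed in limma, at -0.091, -0.09 and -0.091 in control cells and -0.047, -0.045 and -0.047 in *Pcbp2*βKO cells. *Mars1* without Mars1-206, chosen after seeing the data, was at 0.217 and 0.048.

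Glucose in control cells gave 14 calls with the replicate block, 13 without the 3 samples apart on the first component and 12 without both samples numbered 4 at 16.7 mM (chosen after seeing the data), and 3 to 11 leaving out 1 sample, with 11 without control replicate 4 at 16.7 mM. The same settings called 4775 of 22784, 4898 of 22352 and 4532 of 22552 genes, 1382 to 4480 leaving out 1 sample, and 4480 without control replicate 4. Glucose in *Pcbp2*βKO cells gave 15 calls with the block or without the 3 samples, and 11 to 13 leaving out 1 sample. Of all genes, 5900 were called with the block, 6390 without the 3 samples and 4640 to 5742 leaving out 1 sample. The knockout at 2.8 mM gave 2 calls with no filter, with DESeq2 and without the 3 samples, 3 with the block and with the compared groups alone, and 1 to 2 leaving out 1 sample. All genes called were 543 with no filter, 835 with DESeq2 and 671 without the 3 samples. They were 598 with the block, 488 with the compared groups alone and 242 to 492 leaving out 1 sample. At 16.7 mM it gave 2 with no filter, DESeq2 or the block, 0 with the compared groups alone, 4 without the 3 samples or the samples numbered 4, and 0 to 4 leaving out 1 sample, with 4 without *Pcbp2*βKO replicate 4. All genes called there were 535 with no filter, 726 with DESeq2, 578 with the block and 238 with the compared groups alone. They were 587 without the 3 samples, 504 without the samples numbered 4, and 213 to 652 leaving out 1 sample, with 363 without *Pcbp2*βKO replicate 4. The causes were not tested. The interaction gave 0 calls in every setting run. For the named genes, 645 of 773 values kept their direction and their side of the threshold, 26 lost the call, 94 gained it and 8 reversed. Outside glucose in control cells, where every same-number correlation was above 0.1, the block gained *Atf3*, *Ddit4*, *Eif2ak2* and *Ppp1r15a* for glucose in *Pcbp2*βKO cells, *Ppp1r15a* and *Wars1* at 2.8 mM and *Gdf15* at 16.7 mM, and lost none. Members under 1 CPM, such as *Cebpb*, are limited by depth.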

Other observations

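Genes that p53 is known to induce, some of which also respond to other stresses, were also counted. Of 9 such genes, none rose and 5 fell in control cells (median log2 fold change -1.06) and none rose and 6 fell in *Pcbp2*βKO cells (median -1.17), where the medians of all genes were 0.04 and 0.01 and 6.69% and 10.4% of all genes were called lower. The called gene with the largest change was *Phlda3*, which encodes a repressor of AKT, in control cells (-2.05 ± 0.46, adjusted p = 0.00638 in edgeR) and *Eda2r*, a receptor of the tumour necrosis factor family, in *Pcbp2*βKO cells (-2.05 ± 0.52, adjusted p = 0.0058). None of the 9 was called between the genotypes.

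Apart from *Mars1*, the share of 2 other member transcripts did not overlap between the glucose concentrations in *Pcbp2*βKO cells. Cebpg-201 took 8.85% of the *Cebpg* counts at 2.8 mM and 4.25% at 16.7 mM, and Nars-213 took 31.1% and 41.4% of the *Nars1* counts (exact permutation p = 0.00794 each, the smallest that 5 against 5 samples allow, and 0.0675 after adjustment over 34 transcripts). In control cells Atf5-202 took 48.6% of the *Atf5* counts at 2.8 mM and 7.45% at 16.7 mM without overlap (exact permutation p = 0.0571, the smallest that 3 against 4 samples allow, and 0.352 after adjustment), and in *Pcbp2*βKO cells 49.8% and 44.5%, with samples from 0 to 87.6% at 16.7 mM. At 16.7 mM the genotypes overlapped in this share (exact permutation p = 0.143), and Atf5-201 took the rest. These transcripts were named after their values were seen. How many transcripts of all genes separate in this way was not counted, so these cases cannot be set against a usual share.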
